A study of Homo sapiens with 6 samples.

Results

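The genes described here are 31 genes of cholesterol synthesis and sterol regulation, found by symbol among the 58243 genes of a count table from human cells. They comprise 18 enzymes from thiolysis of acetoacetyl-CoA to cholesterol, 5 genes of the sterol-sensing SREBP system, 6 genes of sterol movement and storage and the 2 liver X receptors. RNA was sequenced from cells labelled Hep3B, the name of a human hepatocellular carcinoma line, grown in medium with fetal bovine serum. The treated group had been transfected with si-SNHG17-1, an siRNA against the long noncoding RNA SNHG17, and the control group with the control siRNA si-NC, each with 3 libraries. A single siRNA was used, so an effect of SNHG17 loss and any other effect of that siRNA cannot be told apart. The labels do not say whether the replicates were separate cultures, and p-values here rest on how far these libraries spread, which may be technical in part.

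Cholesterol is made largely in the endoplasmic reticulum from acetyl-CoA by way of mevalonate, farnesyl diphosphate, squalene and lanosterol. The genes of this route are switched together by SREBP-2, a membrane-bound transcription factor encoded by SREBF2. When membrane sterol is low, SCAP escorts SREBP to the Golgi, where proteases release its active part, and when sterol is high the INSIG proteins hold SCAP back. Sterol taken up in lipoproteins leaves lysosomes through NPC2 and NPC1, is esterified by SOAT1 for storage, and leaves the cell through ABCA1 and ABCG1 under control of the liver X receptors NR1H2 and NR1H3. The liver is a main site of this synthesis in the body.

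Total counts were 30207055 to 41620321 in si-SNHG17-1 libraries and 38245838 to 42271168 in si-NC libraries. SNHG17 stood at 8.02 to 8.26 CPM (counts per 1000000 counts of TMM-scaled library size) in si-SNHG17-1 libraries, against 22.4 to 23.9 CPM in si-NC libraries, a log2 fold change of −1.51 ± 0.12 (SE), and it shares exon with a small nucleolar RNA. An exact two-sided permutation test gave p = 0.1, the smallest that 3 against 3 libraries allow. Of 8 hepatocyte markers, 7 stayed under 1 CPM in every library, and TTR and GPC3 were at 0 counts, where up to 0.0976 CPM could be missed in the shallowest library. The 8 markers summed to 1.59 to 2.98 CPM in si-SNHG17-1 libraries and 1.27 to 1.44 CPM in si-NC libraries, so the defining liver genes were nearly absent and the cells are called by their label. Of 7 markers of other cell types, 4 stayed under 1 CPM. The sum was 98.6 to 119 CPM in si-SNHG17-1 libraries and 84.7 to 90.7 CPM in si-NC libraries, nearly all of it COL1A1, a collagen gene. COL1A2, the other collagen gene among the 7, was at 0 counts in every library. The part of COL1A1 in the results was not tested. In bulk RNA, fewer cells of a type and less RNA per cell cannot be told apart.

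Most of the sterol genes did not pass the test. After si-SNHG17-1, NPC1, the lysosomal cholesterol exporter, rose 1.39-fold. SREBF2 fell 1.33-fold, and TM7SF2, a sterol C14 reductase of the late pathway, fell 1.76-fold. Of 30 genes with enough counts to be tested, 1 rose and 2 fell at an adjusted p under 0.05 (edgeR quasi-likelihood test, Benjamini-Hochberg over all genes), which is 10%. Across all 18679 genes tested 10.5% were called, 5.25% higher and 5.21% lower, so the share of sterol genes called was close to the background. With total counts in place of TMM scaling 2 sterol genes were called higher and 2 lower, with 1168 and 781 over all 18679 genes tested. The count called lower was 0 without si-SNHG17-1 replicate 1 or 3 (4 and 5 at an unadjusted p under 0.05 in edgeR) and 1 without si-SNHG17-1 replicate 2, si-NC replicate 1 or si-NC replicate 3. Of all genes, 974 were called lower in the main fit. Without si-SNHG17-1 replicate 1 or 3 it was 264 of 19456 and 332 of 19352 (1991 and 2029 at an unadjusted p under 0.05 in edgeR). Without si-SNHG17-1 replicate 2, si-NC replicate 1 or si-NC replicate 3, 366, 705 and 531 of all genes were called lower. The count of sterol genes called higher was 2 without si-NC replicate 3, where 527 of all 19380 genes tested were called higher. No sterol gene was called with a change of 2-fold or more. The median log2 fold change was −0.05 over the 30 genes and −0.00 over all genes tested, with 13 sterol genes above 0 and 17 below. The direction of that median was not stable, at −0.12 without si-NC replicate 1, 0.06 with 16 genes above 0 and 14 below without si-NC replicate 2, 0.01 without si-NC replicate 3 and 0.01 without si-SNHG17-1 replicate 2. Total counts gave 15 above 0 and 15 below.

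**Figure D1:**
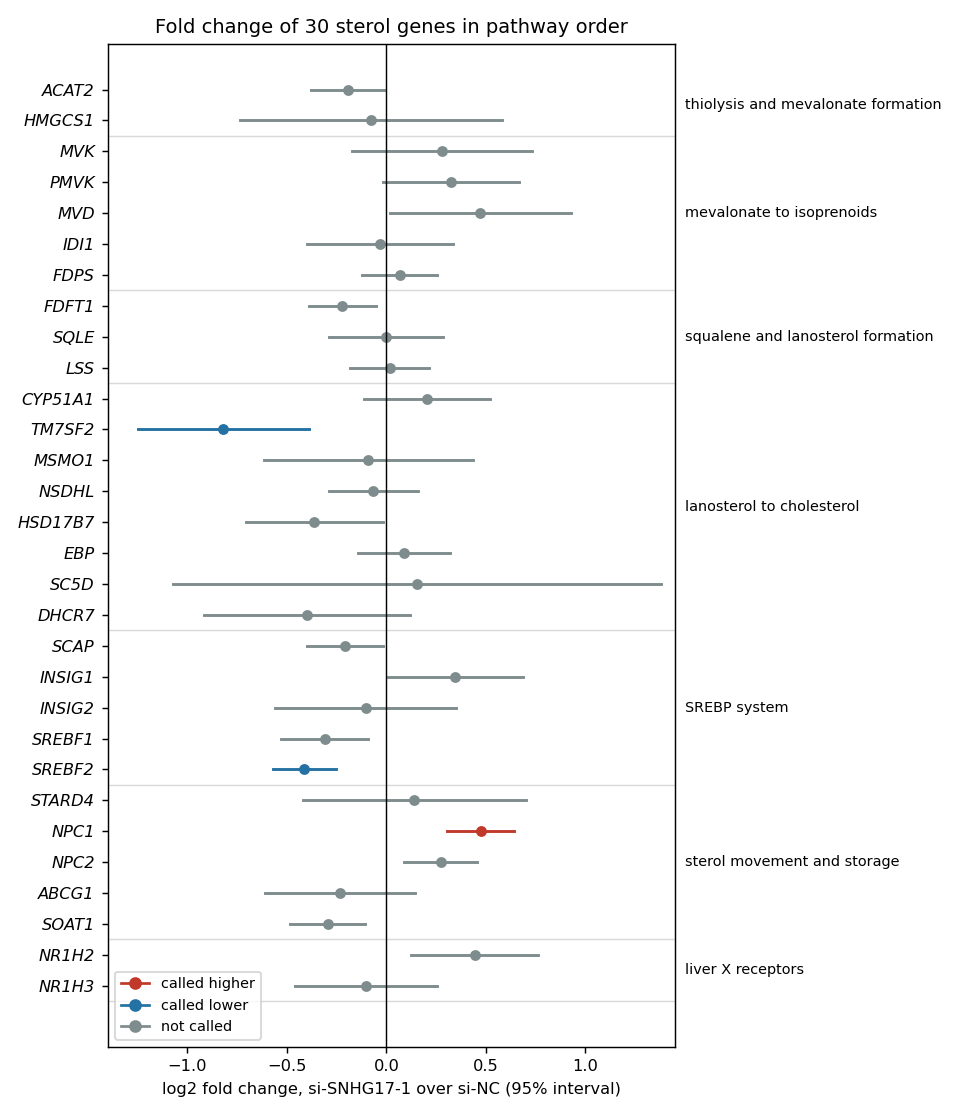
Log2 fold change of si-SNHG17-1 over si-NC for the 30 tested sterol genes (x axis), listed in pathway order (y axis), with 95% intervals from the edgeR fit. NPC1 (0.47) is called higher, SREBF2 (−0.41) and TM7SF2 (−0.82) are called lower, and SC5D has the widest interval.

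Uncalled genes differed in how closely their change was bounded. The 95% interval of the fold change lay within 1.5-fold in either direction for 16 of the 30 genes and within 2-fold for 28. The exceptions at 2-fold were TM7SF2 and SC5D. At an unadjusted p under 0.05 there were 13 sterol genes, 5 higher and 8 lower, or 43.3%, against 26.8% of all genes tested. That count was 4 higher and 4 lower without si-SNHG17-1 replicate 1, 3 and 5 without si-SNHG17-1 replicate 3, and 6 higher and 5 lower with total counts. All genes tested had 2446 higher and 2551 lower of 18679 at that p in the main fit. Without si-SNHG17-1 replicate 1 they had 2046 and 1991 of 19456, and without its replicate 3 they had 2136 and 2029 of 19352. With total counts they had 2849 and 2148 of 18679. The libraries of the groups did not overlap in CPM for 12 of the 30 genes (40%), 4 higher and 8 lower, against 33.7% of all genes tested.

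The promoters of SREBF2, TM7SF2 and NPC1 are shown because these are the genes that were called. Each window runs from 250 bases before to 50 bases after the RefSeq start of the gene, 5′ to 3′ on the strand of the gene (RefSeq, GRCh38.p14). Capitals mark matches on either strand to the sterol regulatory element letters TCACNCCAC and to the CCAAT box.
SREBF2, chr22:41832855-41833154, plus strand: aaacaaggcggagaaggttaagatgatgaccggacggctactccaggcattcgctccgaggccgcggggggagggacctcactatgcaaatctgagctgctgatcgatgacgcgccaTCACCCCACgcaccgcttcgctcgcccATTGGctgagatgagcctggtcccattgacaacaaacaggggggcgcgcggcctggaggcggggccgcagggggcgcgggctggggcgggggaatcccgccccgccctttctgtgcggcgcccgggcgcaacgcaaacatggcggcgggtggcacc
TM7SF2, chr11:65111622-65111921, plus strand: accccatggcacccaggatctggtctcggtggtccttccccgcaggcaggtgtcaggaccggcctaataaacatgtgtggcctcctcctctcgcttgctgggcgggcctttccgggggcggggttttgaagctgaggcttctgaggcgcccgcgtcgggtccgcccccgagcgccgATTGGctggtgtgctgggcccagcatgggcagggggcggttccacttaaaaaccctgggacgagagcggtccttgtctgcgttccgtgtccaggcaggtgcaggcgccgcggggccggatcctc
NPC1, chr18:23586457-23586756, minus strand: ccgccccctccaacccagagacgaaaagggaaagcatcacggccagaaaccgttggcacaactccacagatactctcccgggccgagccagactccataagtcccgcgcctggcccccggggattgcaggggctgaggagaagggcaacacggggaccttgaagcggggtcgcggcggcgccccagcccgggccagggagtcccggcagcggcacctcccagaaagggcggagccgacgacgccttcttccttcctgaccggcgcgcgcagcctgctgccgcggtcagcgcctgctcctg

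The SREBF2 window held the element 133 to 125 bases before the start and a CCAAT box on the opposite strand 106 to 102 bases before it. The TM7SF2 window held a CCAAT box on the opposite strand 74 to 70 bases before the start and no match to the element. The NPC1 window held a match to neither. Of the 31 genes, 27 had at least 1 window in the table. A match to the element was in the windows of 1 of these 27 genes, SREBF2, and in 1.39% of the 27305 genes with a window. CCAAT, which NF-Y binds beside SREBP at many sterol genes, was in the windows of 19 of 27 genes, against 39.7% of all genes. The GC box GGGCGG, searched on both strands, was in those of 26 of 27, against 48.3%. In these 3 windows the matches to different motifs did not overlap. The set of all genes includes noncoding genes, and a match of letters does not show binding. Only exact letters within these windows were searched, so a missing match does not show that a gene lacks the element.

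Among the 18 synthesis enzymes TM7SF2 was called lower and no enzyme was called higher by edgeR, DESeq2 or limma-voom. At an unadjusted p under 0.05, edgeR and limma-voom had 1 enzyme higher and 4 lower, and DESeq2 had 1 higher and 3 lower. Over all 18679 genes tested, edgeR had 2446 higher and 2551 lower at that p, or 26.8%. Of the same number of genes limma-voom had 2588 higher and 2550 lower. DESeq2, which tested a larger set of 30138 genes, had 2490 higher and 2545 lower. At the adjusted threshold, edgeR called 5.21% of all genes lower. The CPM of the 18 enzymes summed to 979, 949 and 995 in si-SNHG17-1 libraries, against 884, 1014 and 1030 in si-NC libraries, and the ranges overlapped. The median log2 fold change of the enzymes was −0.02.

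At the entry to the pathway, ACAT2, the cytosolic thiolase, was at 63.7, 64.4 and 65.4 CPM in si-SNHG17-1 libraries, against 77.5, 70.0 and 73.8 CPM in si-NC libraries. All 3 treated libraries lay below all controls, but the difference was not called (log2 fold change −0.19 ± 0.08 SE, edgeR adjusted p = 0.165). Exons of ACAT2 share 1458 bases with SOD2-OT1, 1141 bases with SOD2 and 397 bases with the chaperonin gene TCP1, all on the other strand, and it is not known whether the counting used strand. TCP1 was called lower (−0.70 ± 0.12 SE), and the other partners were not analysed here. HMGCS1, which makes HMG-CoA, was at 72.7, 36.9 and 69.7 CPM in si-SNHG17-1 libraries and 46.4, 79.2 and 63.5 CPM in si-NC libraries. An antisense RNA, AC114947.2, shares 703 bases of exon with HMGCS1 and had 532, 428 and 312 counts in si-SNHG17-1 libraries and 145, 587 and 450 counts in si-NC libraries. The spread of HMGCS1 within either group exceeded the difference between the group means.

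The mevalonate segment had 4 of its 5 genes above 0 and none called (edgeR adjusted p of 0.172 to 0.931). PMVK, phosphomevalonate kinase, was at 46.8, 50.2 and 49.1 CPM in si-SNHG17-1 libraries, against 31.1, 39.8 and 45.9 CPM in si-NC libraries, higher in all treated libraries (0.32 ± 0.15 SE, edgeR adjusted p = 0.208). MVD, the mevalonate diphosphate decarboxylase, averaged 20.1 ± 4.71 CPM in si-SNHG17-1 and 14.5 ± 1.42 CPM in si-NC (SD, n = 3 each), and its libraries overlapped. MVK, mevalonate kinase, likewise overlapped (log2 fold change 0.28 ± 0.19 SE). IDI1, the isopentenyl diphosphate isomerase, had a log2 fold change of −0.03 ± 0.16 (SE). FDPS makes farnesyl diphosphate and was among the most abundant sterol genes per exon length. It was at 125, 139 and 129 CPM in si-SNHG17-1 libraries, against 117, 129 and 129.6 CPM in si-NC libraries. The groups overlapped (0.07 ± 0.08 SE, edgeR adjusted p = 0.662), and the 95% interval of the change ran from 0.919-fold to 1.19-fold. An antisense RNA, RUSC1-AS1, shares 693 bases of exon with FDPS.

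Of the enzymes that form squalene and lanosterol, only FDFT1 had groups that did not overlap. FDFT1, squalene synthase, was at 67.4, 67.4 and 67.3 CPM in si-SNHG17-1 libraries, against 76.9, 77.8 and 80.8 CPM in si-NC libraries. It was lower in every treated library without reaching the threshold (−0.22 ± 0.07 SE, edgeR adjusted p = 0.102). SQLE, the oxygen-requiring squalene epoxidase, averaged 54.5 ± 5.13 CPM in si-SNHG17-1 and 54.6 ± 6.70 CPM in si-NC (SD, n = 3 each). LSS, lanosterol synthase, averaged 101 ± 4.99 CPM in si-SNHG17-1 and 99.7 ± 7.09 CPM in si-NC (SD, n = 3 each). For both genes the 95% interval lay within 1.5-fold.

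TM7SF2 was the least expressed enzyme per exon length after si-SNHG17-1 and had the largest change of the 30 genes. It reduces the C14 double bond that CYP51A1 leaves in the sterol ring, a step that the lamin B receptor can also carry out. Its level was 4.76, 5.17 and 4.10 CPM in si-SNHG17-1 libraries, against 8.49, 6.92 and 9.37 CPM in si-NC libraries. All treated libraries were below all controls, with a log2 fold change of −0.82 ± 0.18 SE (edgeR adjusted p = 0.0332). The call was held in only 1 of 6 fits with a library left out, that without si-NC replicate 2. It was lost without si-NC replicates 1 or 3 (log2 fold change −0.80 and −0.72) and without si-SNHG17-1 replicates 1, 2 or 3 (−0.82, −0.89 and −0.72), with edgeR adjusted p of 0.0721 to 0.111. With no filter on low counts the edgeR adjusted p was 0.0617. The lamin B receptor gene LBR was at 0.14 ± 0.09 SE on the log2 scale and was not called. In GRCh38 TM7SF2 (ENSG00000149809.14) occupies chromosome 11, 65111845 to 65116384, plus strand.

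The other late enzymes were not called. CYP51A1, lanosterol demethylase and the most abundant late enzyme per exon length, was at 122, 110.1 and 122 CPM in si-SNHG17-1 libraries, against 81.7, 113 and 113 CPM in si-NC libraries. Its lowest library was si-NC replicate 1, and the groups overlapped (0.20 ± 0.14 SE, edgeR adjusted p = 0.390). Exons of CYP51A1 share 2844 bases, 79% of their length, with AC000120.2 on the same strand. How reads there were counted is not known, and AC000120.2 was not analysed here. HSD17B7, a 3-ketosteroid reductase, was at 10.7, 13.99 and 12.4 CPM in si-SNHG17-1 libraries, against 15.3, 17.1 and 15.2 CPM in si-NC libraries. It was lower in every treated library (−0.36 ± 0.15 SE, edgeR adjusted p = 0.165), and as it has a near-identical pseudogene its counts are uncertain. DHCR7, which reduces dehydrocholesterol to cholesterol, was at 31.8, 40.6 and 48.0 CPM in si-SNHG17-1 libraries, against 69.9, 46.4 and 42.4 CPM in si-NC libraries, and the groups overlapped. NSDHL, a C4 decarboxylase, and EBP, the sterol isomerase, had log2 fold changes of −0.07 ± 0.10 and 0.09 ± 0.10 (SE). MSMO1, the C4 methyl oxidase, and SC5D, the C5 desaturase, had wider errors (−0.09 ± 0.23 and 0.15 ± 0.53 SE).

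Of the 5 SREBP system genes 1 was called, against 10.5% of all genes tested. Their CPM summed to 536, 546 and 576 in si-SNHG17-1 libraries, against 683, 669 and 655 in si-NC libraries, without overlap. Most of that sum came from SREBF2 and SREBF1. Their means were 239 and 155 CPM in si-SNHG17-1, against 319 and 192 CPM in si-NC. SREBF2 was called lower, SREBF1 and SCAP were lower in every treated library without being called, INSIG2 overlapped, and INSIG1 was on the other side of 0.

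SREBF2 was at 226, 249 and 244 CPM in si-SNHG17-1 libraries, against 320.2, 327 and 308 CPM in si-NC libraries. The highest treated library was below the lowest control. The log2 fold change was −0.41 ± 0.07 SE (edgeR adjusted p = 0.0116), leaving 75.2% of the control mean. The call was lost without si-SNHG17-1 replicate 1 (−0.36, edgeR adjusted p = 0.0703) and without si-SNHG17-1 replicate 3 (−0.41, edgeR adjusted p = 0.0502), and held without any of the other libraries. In GRCh38 SREBF2 (ENSG00000198911.11) occupies chromosome 22, 41833079 to 41907308, plus strand. An antisense RNA that shares 280 bases of exon with it, named SREBF2-AS1 in GENCODE release 29, had a log2 fold change of −0.47 ± 0.18 (SE) and was not called (edgeR adjusted p = 0.140).

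SREBF1 encodes SREBP-1, the form that mainly drives fatty acid synthesis. It was at 146, 154 and 166 CPM in si-SNHG17-1 libraries, against 213, 185 and 178 CPM in si-NC libraries. The groups did not overlap, and the difference fell short of the threshold (−0.31 ± 0.09 SE, edgeR adjusted p = 0.0783). SCAP, the escort, was at 77.0, 73.7 and 84.2 CPM in si-SNHG17-1 libraries, against 90.1, 88.8 and 92.2 CPM in si-NC libraries (−0.21 ± 0.08 SE, edgeR adjusted p = 0.153). INSIG1, an SREBP target that retains SCAP, was at 68.3, 51.5 and 69.2 CPM in si-SNHG17-1 libraries, against 44.8, 47.6 and 56.3 CPM in si-NC libraries. Its groups overlapped and it was not called (0.35 ± 0.14 SE, edgeR adjusted p = 0.177). INSIG2 averaged 16.8 ± 3.09 CPM in si-SNHG17-1 and 18.1 ± 3.27 CPM in si-NC (SD, n = 3 each).

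**Figure D2:**
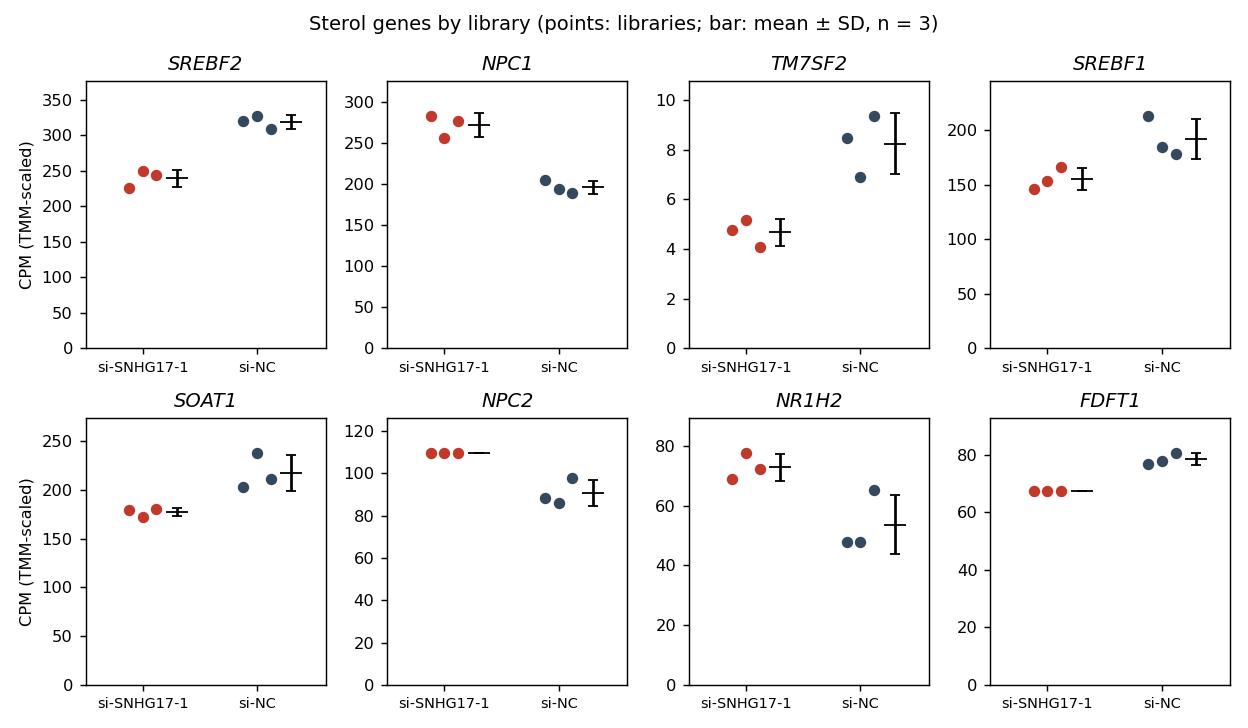
TMM-scaled CPM (y axis) of 8 sterol genes in each library (points) of si-SNHG17-1 and si-NC, with the mean ± SD of 3 libraries beside them. All 8 were taken from the 12 of 30 tested sterol genes whose groups did not overlap, so the gap between groups is not a separate result. Over all genes tested 33.7% did not overlap. SREBF2, NPC1 and TM7SF2 are the 3 that were called.

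Genes of sterol movement held the only rise that was called. NPC1 was at 284, 256 and 278 CPM in si-SNHG17-1 libraries, against 205, 194 and 189 CPM in si-NC libraries. All treated libraries were higher, with a log2 fold change of 0.47 ± 0.07 SE (edgeR adjusted p = 0.00901). The call held whichever of the 6 libraries was left out, at edgeR adjusted p of 0.0153 to 0.0486. In GRCh38 NPC1 (ENSG00000141458.12) occupies chromosome 18, 23506184 to 23586898, minus strand. RMC1, listed as C18orf8, shares 604 bases of exon with it on the other strand and had a log2 fold change of 0.05 ± 0.12 (SE).

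NPC2, the soluble lysosomal protein that hands cholesterol to NPC1, was at 109.7, 109.8 and 109.7 CPM in si-SNHG17-1 libraries, against 88.6, 85.9 and 97.9 CPM in si-NC libraries. It was higher in every treated library but not called (0.27 ± 0.08 SE, edgeR adjusted p = 0.0688). With total counts in place of TMM scaling it passed (0.31, edgeR adjusted p = 0.0440). ISCA2, which shares 103 bases of exon with it on the other strand, was called lower (−0.58 ± 0.12 SE).

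SOAT1, which esterifies cholesterol for storage in lipid droplets, was at 179.6, 172 and 181 CPM in si-SNHG17-1 libraries, against 204, 238 and 211 CPM in si-NC libraries. It was lower in every treated library and had the smallest adjusted p of the uncalled genes (−0.29 ± 0.08 SE, edgeR adjusted p = 0.0584). STARD4, a cytosolic sterol carrier, averaged 38.4 ± 3.47 CPM in si-SNHG17-1 and 34.8 ± 12.1 CPM in si-NC (SD, n = 3 each). ABCG1, the transporter that passes sterol to lipoproteins, averaged 13.0 ± 1.87 CPM in si-SNHG17-1 and 15.3 ± 1.80 CPM in si-NC (SD, n = 3 each). ABCA1, the efflux pump for lipid-poor apolipoprotein, was at 5, 0 and 0 counts in si-SNHG17-1 libraries and 16, 9 and 5 counts in si-NC libraries, too few to be tested in the main fit.

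The liver X receptors differed in level and in how their libraries lay. NR1H2, the widely expressed receptor, was at 68.7, 77.7 and 72.2 CPM in si-SNHG17-1 libraries, against 47.9, 47.8 and 65.0 CPM in si-NC libraries. It was higher in every treated library, with si-NC replicate 3 nearest to them (0.44 ± 0.14 SE, edgeR adjusted p = 0.0838). Without si-NC replicate 3 it was called (0.61, edgeR adjusted p = 0.0249), and DESeq2 called it with all libraries (0.44, adjusted p = 0.0323). NR1H3, the receptor richer in liver and macrophages, averaged 16.4 ± 1.65 CPM in si-SNHG17-1 and 17.5 ± 2.49 CPM in si-NC (SD, n = 3 each). Whether the receptors differed from each other in their change was not tested.

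Levels can be compared between genes only per exon length. In CPM per kb of merged exon, SREBF2 ranked 5 of 31 in si-SNHG17-1 libraries and 1 of 31 in si-NC libraries, at 29.9 to 32.9 in si-SNHG17-1 and 40.8 to 43.3 in si-NC. The next in si-NC were FDPS at 31.4 to 34.9, NPC2 at 31.3 to 35.6, SOAT1 at 29.1 to 34.0 and PMVK at 24.3 to 35.9, which overlapped each other. NPC2 led in si-SNHG17-1 libraries at 39.9 to 40.0, with PMVK at 36.6 to 39.3 and FDPS at 33.7 to 37.4. MVK, MVD, TM7SF2, HSD17B7, SC5D, INSIG2, ABCG1 and NR1H3 had means under 5 in both groups. ABCA1 did not exceed 0.0374 in any library.

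**Figure D3:**
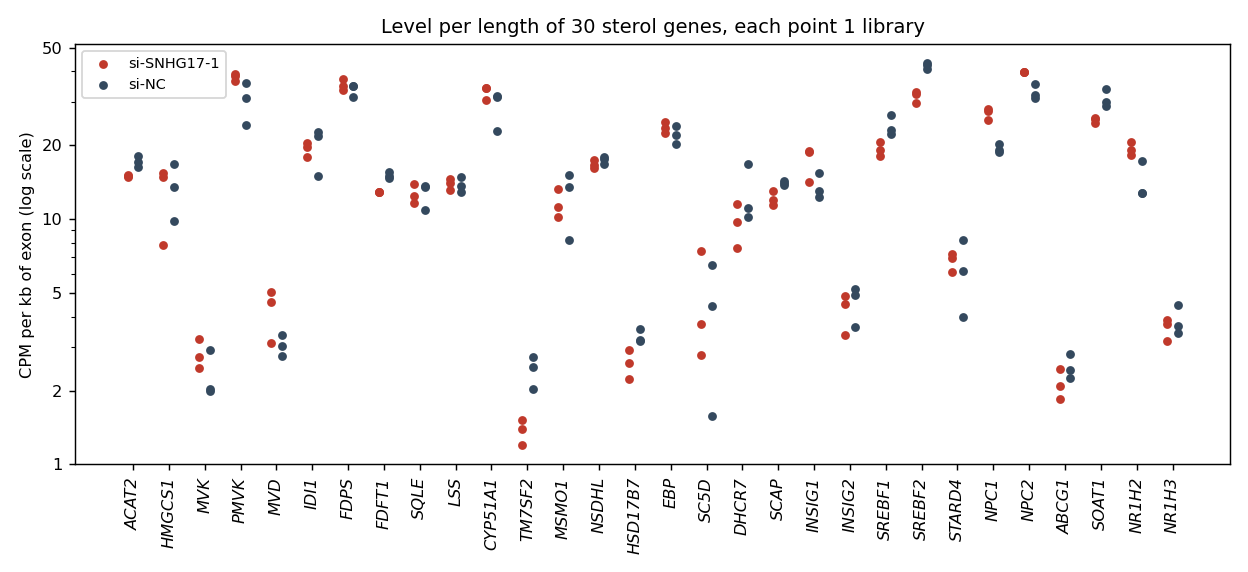
Level of 30 sterol genes in CPM per kb of merged exon (y axis, log scale) in pathway order (x axis), each point 1 library. SREBF2 leads in si-NC libraries and NPC2 in si-SNHG17-1 libraries.

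Several enzymes varied more between replicates than between groups. Among si-NC libraries, replicate 1 was the lowest for 11 of 18 enzymes, a pattern noticed after the values were seen. For SC5D the libraries stood at 41.3, 15.6 and 20.8 CPM in si-SNHG17-1 and at 8.78, 24.6 and 36.3 CPM in si-NC, 2.65-fold and 4.13-fold from lowest to highest. STARD4 was at 39.5, 34.5 and 41.1 CPM in si-SNHG17-1 and 22.6, 46.8 and 34.9 CPM in si-NC. MSMO1 was at 32.5, 29.5 and 38.5 CPM in si-SNHG17-1 and 23.8, 43.7 and 39.3 CPM in si-NC. ACAT2, MVK, MVD and DHCR7 instead had their highest control value in si-NC replicate 1. Of 29 sterol genes with a mean of at least 10 CPM, 15 (51.7%) were lowest in si-NC replicate 1 among controls, against 34.0% of the 10655 genes tested at that level. Their median coefficient of variation was 6.64% in si-SNHG17-1 and 11.8% in si-NC, against 7.47% and 10.0% over those genes. When a library was left out, the sign of the log2 fold change differed between fits for 9 of the 30 genes, which were HMGCS1, IDI1, SQLE, LSS, MSMO1, SC5D, INSIG2, STARD4 and NR1H3, and none of these was called.

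**Figure D4:**
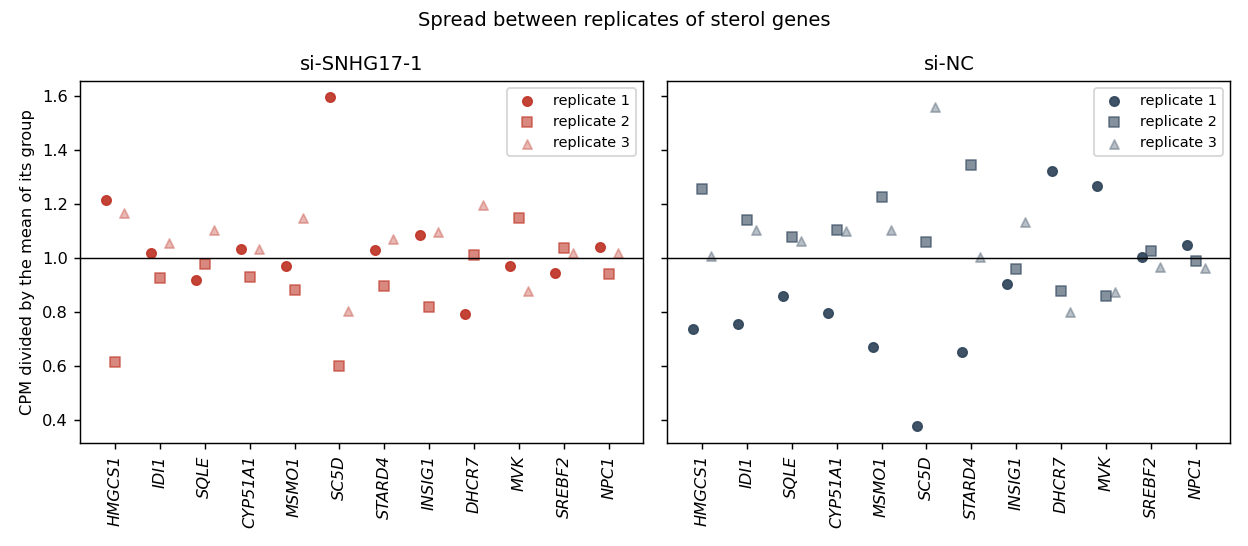
CPM of 12 sterol genes divided by the mean of their own group (y axis), for the 3 replicates of si-SNHG17-1 (left) and si-NC (right). Replicate 1 of si-NC lies lowest for HMGCS1, IDI1, SQLE, CYP51A1, MSMO1, SC5D, STARD4 and INSIG1 and highest for DHCR7 and MVK, while SREBF2 and NPC1 stay close to 1.

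Other genes of the sterol pathway were taken from a list of 58, of which 55 were tested in the main fit. Of these, 5 rose and 5 fell, 18.2% against the background of 10.5%, and with total counts in place of TMM scaling 6 were higher and 3 lower. Leaving out si-SNHG17-1 replicate 1 gave 1 higher and 1 lower, leaving out its replicate 2 gave 2 and 2, and leaving out its replicate 3 gave 2 and 1. Leaving out si-NC replicate 2 gave 2 higher and 4 lower, and leaving out its replicate 3 gave 3 and 4. Calls over all genes also fell in these fits, from 980 higher and 974 lower of 18679 genes tested. They were 313 and 264 of 19456 without si-SNHG17-1 replicate 1, and 402 and 366 of 19330 without its replicate 2. Without its replicate 3 they were 399 and 332 of 19352. Without si-NC replicate 2 they were 616 and 578 of 19419, and without si-NC replicate 3 they were 527 and 531 of 19380. The list was not chosen for how its genes moved, but it was written with earlier results of these data known, VLDLR among them.

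Among 11 genes that process SREBP or degrade sterol-regulated proteins, 3 rose and 1 fell, against 5.25% called higher and 5.21% called lower over all genes. ERLIN1, a lipid raft protein of the endoplasmic reticulum that binds cholesterol, was at 102, 99.3 and 100.2 CPM in si-SNHG17-1 libraries, against 53.8, 53.8 and 55.4 CPM in si-NC libraries (0.89 ± 0.07 SE, edgeR adjusted p = 0.00122). Its partner ERLIN2 moved the other way, at 36.0, 42.3 and 37.7 CPM in si-SNHG17-1 libraries, against 56.2, 61.5 and 64.6 CPM in si-NC libraries (−0.65 ± 0.10 SE, edgeR adjusted p = 0.0108). The ERLIN1 call held whichever of the 6 libraries was left out, while ERLIN2 lost it without si-SNHG17-1 replicate 1 or 3 (edgeR adjusted p = 0.0643 and 0.0573). SEC23A, a coat protein of the vesicles that carry SCAP and SREBP to the Golgi, averaged 243 ± 8.37 CPM in si-SNHG17-1 and 168 ± 14.3 CPM in si-NC (SD, n = 3 each). It was higher in every treated library (0.53 ± 0.08 SE, edgeR adjusted p = 0.00955), and lost the call without si-SNHG17-1 replicate 1 (edgeR adjusted p = 0.0606). MBTPS1, the Golgi protease that makes the first SREBP cleavage, averaged 208 ± 4.10 CPM in si-SNHG17-1 and 165 ± 8.44 CPM in si-NC (SD, n = 3 each). With 1 library left out, its call (0.34 ± 0.07 SE, edgeR adjusted p = 0.0255) held only when that library was si-NC replicate 1, and the adjusted p was 0.0608 to 0.0808 in the other 5 fits. MBTPS2, the second protease, was not called (−0.25 ± 0.08 SE).

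Of 4 lipoprotein uptake genes, 3 were called lower, against 5.21% of all genes, and only the VLDLR call, known when the list was written, held whichever library was left out. VLDLR, a receptor for triglyceride-rich lipoproteins, was at 18.0, 20.6 and 20.3 CPM in si-SNHG17-1 libraries, against 48.4, 41.5 and 38.5 CPM in si-NC libraries, and VLDLR was the only gene of either list called with a change of 2-fold or more. Every treated library was below every control (−1.12 ± 0.13 SE, edgeR adjusted p = 0.00353). An antisense RNA, VLDLR-AS1, shares 738 bases of exon with VLDLR. LRP8, the apolipoprotein E receptor 2 gene, averaged 112 ± 3.52 CPM in si-SNHG17-1 and 148 ± 8.25 CPM in si-NC (SD, n = 3 each). Its log2 fold change was −0.40 ± 0.08 SE (edgeR adjusted p = 0.0190), and the call was lost without si-SNHG17-1 replicate 1, 2 or 3 (−0.40, −0.36 and −0.40, with edgeR adjusted p of 0.0627 to 0.0747). SCARB1, the receptor for high-density lipoprotein, averaged 254 ± 8.45 CPM in si-SNHG17-1 and 301 ± 9.86 CPM in si-NC (SD, n = 3 each). Its call was marginal (−0.25 ± 0.06 SE, edgeR adjusted p = 0.0493) and was lost whichever library was left out and in all other alternatives but limma-voom.

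Of 17 sterol transfer genes, 2 rose and 1 fell, against 5.25% called higher and 5.21% called lower over all genes. STARD3, which ties late endosomes to the endoplasmic reticulum, was at 40.3, 37.0 and 40.5 CPM in si-SNHG17-1 libraries, against 25.7, 26.5 and 30.6 CPM in si-NC libraries (0.51 ± 0.11 SE, edgeR adjusted p = 0.0307). OSBPL11, an oxysterol-binding protein homologue, averaged 45.2 ± 1.79 CPM in si-SNHG17-1 and 32.9 ± 0.527 CPM in si-NC (SD, n = 3 each), higher by 0.46 ± 0.09 SE on the log2 scale (edgeR adjusted p = 0.0221). GRAMD1A, which draws cholesterol from the plasma membrane, averaged 95.3 ± 4.68 CPM in si-SNHG17-1 and 120.3 ± 8.27 CPM in si-NC (SD, n = 3 each), a log2 fold change of −0.34 ± 0.08 SE (edgeR adjusted p = 0.0452). Each of these 3 calls held in only 1 of the 6 fits with a library left out. STARD3 held it without si-NC replicate 3, OSBPL11 without si-NC replicate 1 and GRAMD1A without si-NC replicate 2. In the other 5 edgeR fits the highest adjusted p was 0.116 for STARD3, 0.0968 for OSBPL11 and 0.149 for GRAMD1A. GRAMD1A also lost its call with total counts (edgeR adjusted p = 0.0633) and with no filter (edgeR adjusted p = 0.0785).

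The 10 genes of the isoprenoid branches, 5 sterol reductase and electron donor genes and 5 partners and targets of the liver X receptors held no call, with edgeR adjusted p of at least 0.0549. The lowest value belonged to PDSS2, a subunit of the enzyme that makes the side chain of ubiquinone (0.56 ± 0.15 SE). The 3 tested genes of ester hydrolysis and oxysterols were not called either, and CYP27A1, CYP7B1 and CYP46A1 had too few counts to be tested in the main fit.

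**Figure D5:**
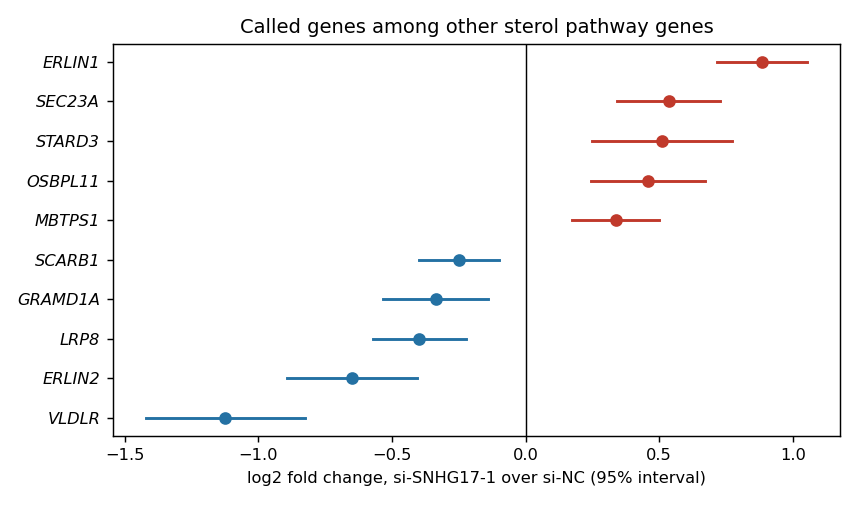
Log2 fold change of si-SNHG17-1 over si-NC with 95% interval (x axis) for the 10 called genes among the other sterol pathway genes (y axis). ERLIN1 (0.89) and VLDLR (−1.12) lie farthest from 0.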

How the data were processed

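The authors deposited raw counts per gene for 6 libraries, as whole numbers with no normalisation. The tool named is HISAT2 and the build GRCh38, per the submitters' processing notes, and the sources used here give no version, counting program, annotation release or strand setting. All 37 mitochondrial genes were at 0 counts, and between 8 and 40 each library held 1.50 to 1.73 times as many counts divisible by 4 as counts 1 above or below. Whether the values are plain tallies of reads is not known.

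Symbols matched all 31 genes. Exon lengths and overlaps came from GENCODE release 29, promoters from RefSeq. Genes passing filterByExpr (minimum count 10, total 15) were fitted in edgeR 4.0.16 (R 4.3.3) with TMM scaling, the quasi-likelihood test and Benjamini-Hochberg adjustment over all genes. Standard errors are the log2 fold change over the square root of F, and 95% intervals use the fit's degrees of freedom. CPM are TMM-scaled. Library pairs of a group gave a chi-square of 26.6 to 55.2 per degree of freedom. This is spread beyond sampling noise only if the values are plain tallies of reads, which is not known. Floors cover counting error only.

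Members and lists were chosen with earlier results of these data known. Values are given in full for called genes, the 3 uncalled with the smallest adjusted p, those whose groups did not overlap and whose absolute log2 difference was at least 0.3, and the most abundant per length of each role; some others are also given so. Alternatives were other scalings and filters, DESeq2 1.42.0, limma-voom (limma 3.58.1), a replicate block and leaving out each library.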

Additional observations from a re-analysis of the deposited data

How the results depend on the processing

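Under other scalings, filters and tools the counts of calls moved by more than 1.5 times as follows. With total counts in place of TMM, 2 sterol genes were higher and 3 of the other sterol pathway genes were lower. Without a filter beyond a total above 0, 627 of all genes, 1 sterol gene (SREBF2) and 3 other pathway genes were lower. DESeq2 called 2 sterol genes higher, and limma-voom moved no count that far. With total counts the median log2 fold change of all genes was 0.04. With a library left out, 313 to 694 of all genes were higher and 264 to 705 lower, 1 to 2 sterol genes were higher and 0 to 2 lower (0 without si-SNHG17-1 replicate 1 or 3, where edgeR gave 4 and 5 lower at an unadjusted p under 0.05, against 1991 and 2029 of all genes), and 1 to 5 other pathway genes were higher and 1 to 4 lower. The counts over all genes moved by over 1.5 times without any library but si-NC replicate 1, and these fits have fewer libraries.

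The replicate numbers did not pair the libraries, since same-numbered libraries correlated at −0.037 to −0.015 in their deviations from the group means and none correlated best with its own number. With the replicate block edgeR called 273 genes higher and 259 lower, 0 sterol genes higher and 0 lower (5 and 4 at an unadjusted p under 0.05), and 1 other pathway gene higher and 2 lower. At that unadjusted p, edgeR with the block had 2122 higher and 2095 lower of all 18679 genes tested. No called gene changed sign under any alternative run, while 9 uncalled sterol genes did when a library was left out. ABCA1 did not pass the count filter of the main fit. Without a filter beyond a total above 0, and in DESeq2, all 31 sterol genes were tested and ABCA1 was not called.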
